A study of Mus musculus with 2 samples.

Results

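Type 1 conventional dendritic cells (cDC1) of the mouse pancreas were taken from 2 single-cell libraries, chosen by the measured counts of each barcode. A barcode, the tag shared by all transcripts of 1 captured cell, was a member if it held at least 1500 unique molecular identifiers (UMIs, each standing for 1 counted transcript) with at most 25% of them mitochondrial, at least 2 UMIs of Xcr1 and Clec9a together, at least 1% of UMIs from the class II genes H2-Aa, H2-Ab1, H2-Eb1 and Cd74, at most 1 UMI each of Cd79a and Cd3e, and under 0.3% of UMIs from C1qa, C1qb and C1qc. The rule found 79 members among 22352 barcodes, of which 12606 met the depth and mitochondrial limits. The CP+EVs library, from pancreas treated with Cae and EVs (extracellular vesicles), held 31 members, and the CP library, from pancreas treated with Cae alone, held 48. Both libraries carry the same condition label, an acute pancreatitis induced by Cae. The title of the series instead names a chronic form of the disease, and exercise as what induced the vesicles. The sources used here do not state strain, age, sex, dose or how many animals each library pooled, and no library of untreated pancreas was analysed here. Each group was a single library without replicates, so no test was possible, every difference compares these libraries and not the treatments, and all intervals cover counting error only.

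Conventional dendritic cells of type 1 take up dead cells and present their antigens on class I molecules to CD8 T cells, a process called cross-presentation. In mice they depend on the growth factor receptor Flt3 and on the transcription factors Irf8 and Batf3, sense F-actin of damaged cells through Clec9a, and follow the chemokine Xcl1 with the receptor Xcr1. Interferon gamma made by T and NK cells induces in them Cxcl9 and Cxcl10, chemokines that draw T cells with the receptor Cxcr3, and a family of GTPases that act against microbes within cells.

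In all, 38532775 UMIs were counted in CP+EVs and 51652425 in CP, over 8845 barcodes of CP+EVs (median 2884 UMIs) and 13507 of CP (median 1417 UMIs). Barcodes shared by both libraries numbered 118, and 1 member of each library carried such a barcode. Transcripts of other cell types were present in the members of both libraries. The 10 acinar enzyme genes, which dendritic cells do not make, summed to 19084 CPM (UMIs per 1000000 UMIs of the pooled members) in CP+EVs members and 85.8 CPM in CP members, which was 19.4% and 20% of their level in the whole library. Neutrophil markers summed to 18.3 CPM in CP+EVs members and 724 CPM in CP members, and fibroblast markers to 877 CPM in CP+EVs members and 5290 CPM in CP members. Of the 6 neutrophil markers Mmp9 and Cxcr2 were at 0 in CP+EVs members. Free RNA and doublets cannot be told apart as their source here, and their part in the results below was not tested.

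Members made up 0.506% of 6126 CP+EVs barcodes within the limits (95% Clopper-Pearson interval 0.344 to 0.718) and 0.741% of 6480 CP barcodes (0.547 to 0.981). The intervals overlapped. The members were deep, with a median of 8986 UMIs in CP+EVs and 11729.5 UMIs in CP, and pooled they gave 328286 and 652374 UMIs. Barcodes just inside the limit, with exactly 2 UMIs of Xcr1 and Clec9a, numbered 15 in CP+EVs and 18 in CP, and those just outside with exactly 1 UMI numbered 40 in CP+EVs and 34 in CP. In CP+EVs the sum of Wdfy4, Flt3 and Irf8, markers that the rule did not use, was 2140 CPM in members with 3 or more UMIs of Xcr1 and Clec9a, 282 CPM in those with exactly 2 and 514 CPM in the barcodes with 1. In CP the same sums were 2275, 447 and 708 CPM. The barcodes on both sides of the limit thus held far less of these markers than the members deeper inside it.

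The label was checked member by member, and the data went against it for many of them. Cells were called marker-complete if Wdfy4, Flt3 and Irf8 were all detected with at most 1 UMI each of Pax5 (B cells), Siglech (plasmacytoid dendritic cells) and Cd209a (type 2 dendritic cells), a choice made after the values were seen. These were 10 of 31 members in CP+EVs (32.3%, 95% interval 16.7 to 51.4) and 25 of 48 in CP (52.1%, 37.2 to 66.7). Detection of a marker grows with depth, and the CP members were deeper. The others were placed in 1 kind each, in the order Pax5, Siglech and Cd209a (at least 2 UMIs) and then Lyz2 (at least 1% of UMIs), the lysozyme of macrophages and monocytes. The Lyz2 kind held 10 members in CP+EVs and 5 in CP. Flt3 was at 0 in all of these, while Csf1r, the macrophage growth factor receptor, was detected in 9 of 10 in CP+EVs and 5 of 5 in CP. The Cd209a kind held 4 members in CP+EVs and 9 in CP, the Pax5 kind 3 and 1, the Siglech kind 1 and 2, and 3 and 6 fell in no kind. Kinds overlapped in a few cells, since 1 Cd209a member of each library and 1 marker-complete member of CP also passed the Lyz2 limit, and 1 Siglech member of CP the Cd209a limit.

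**Figure D1:**
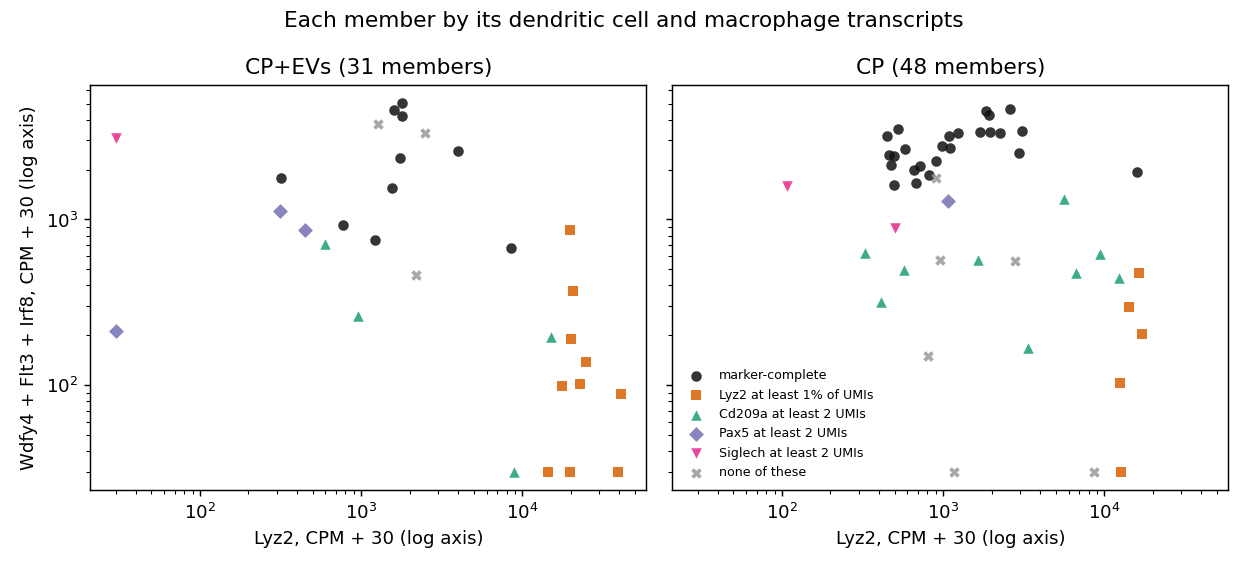
Each point is 1 member, with Lyz2 on the horizontal and the sum of Wdfy4, Flt3 and Irf8 on the vertical axis, both as CPM plus 30 on log axes; CP+EVs is on the left (31 members) and CP on the right (48 members). Most marker-complete members lie at the top, and the members placed in the Lyz2 kind lie at the right, none above 835 CPM for the 3 dendritic cell markers.

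Many members rested on little evidence. Xcr1 at 2 UMIs with no Clec9a was the whole evidence for 11 members in CP+EVs and 15 in CP, and 0 of these were marker-complete. Where Xcr1 and Clec9a were both detected, 9 of 10 members in CP+EVs and 18 of 19 in CP were marker-complete. As a background level, 2 or more UMIs of Xcr1 and Clec9a were also found in 8 of 504 Cd3e-positive cells of CP+EVs (1.59%, 95% interval 0.688 to 3.1) and 16 of 452 of CP (3.54%, 2.04 to 5.68), at median depths of 4197 and 4216 UMIs. Nearly all of these came from Xcr1, since 2 or more UMIs of Clec9a were found in 1 of 504 and 0 of 452 such cells. Values below are therefore given for all members and for the marker-complete ones, which pooled 100398 UMIs in CP+EVs and 342932 in CP.

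Markers of other cells were not absent from the marker-complete members. The 8 macrophage markers summed to 608 CPM in CP+EVs and 601 CPM in CP, with Adgre1 and Fcgr1 at 0 in CP+EVs. The 6 monocyte markers summed to 1355 CPM in CP+EVs and 3053 CPM in CP, and single cells ranged from 359 to 3862 CPM in CP+EVs and from 913 to 11657 CPM in CP. The 6 plasmacytoid dendritic cell markers summed to 787 CPM in CP+EVs and 152 CPM in CP, with Siglech, Ccr9 and Cox6a2 at 0 in CP+EVs. In the whole libraries these 6 summed to 2036 CPM in CP+EVs and 411 CPM in CP. They include Klk1, which was classed with the acinar genes elsewhere here, so the sum does not measure plasmacytoid dendritic cells alone. The part of Klk1 in it was not tested. The acinar genes summed to 32142 CPM in CP+EVs and 75.8 CPM in CP, with single cells at 9378 to 240029 CPM and a median of 14186 in CP+EVs, and at 0 to 337 CPM with a median of 58.5 in CP. The highest of these, 1 CP+EVs cell of 8349 UMIs, lay far above the others.

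For comparison, 3 other sets were taken under the same depth, class II, Cd79a and Cd3e limits. Cd209a dendritic cells had at least 2 UMIs of Cd209a, no Xcr1 or Clec9a, C1q under 0.3% and under 3 UMIs of Ccr7, Fscn1 and Ccl22, and numbered 79 in CP+EVs and 103 in CP. Dendritic cells of the Ccr7 and Fscn1 kind had at least 3 UMIs of Ccr7, Fscn1 and Ccl22, under 2 UMIs of Xcr1 and Clec9a, and C1q under 0.3%. They numbered 135 in CP+EVs and 39 in CP. Macrophages with C1q at 0.3% or more and no Xcr1 or Clec9a numbered 152 in CP+EVs and 265 in CP. Cd3e-positive cells had at least 2 UMIs of Cd3e.

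The genes that stood highest in marker-complete members relative to all other barcodes within the limits were those of the cDC1 programme. Clec9a and Xcr1, on which membership rested, reached 468 and 319 CPM in CP+EVs, and 379 and 260 CPM in CP. Septin3, a septin of the cytoskeleton, had 448 CPM in CP+EVs members and 770 CPM in CP members, against 1.81 and 6 CPM in the other barcodes of each library. Next came Kit (the receptor of stem cell factor) with 179 CPM in CP+EVs and 149 CPM in CP, Tlr3 (the endosomal sensor of double-stranded RNA) with 359 and 280 CPM, and Naaa (a lysosomal amidase) with 1494 and 2065 CPM. P2ry14, Klrb1b, Tbc1d9, Tbc1d8 and Rnase6 were also among the leading genes, together with Flt3, Wdfy4 and Irf8. These genes were read from the same cells that the rule and the marker criterion chose, and are a description.

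Of 40 identity genes present in the files, 33 were measured in members (a minimum of 20 CPM in either library with 20 UMIs over both) and 30 in marker-complete members. A gene was counted as higher or lower at a ratio of 2 or more between the libraries, with 0.5 counts added to each sum. In members 368 of 6245 measured genes (5.89%) were higher and 693 (11.1%) lower in CP+EVs, with a median log2 ratio of -0.15. In marker-complete members 257 of 3911 (6.57%) were higher and 584 (14.9%) lower, with a median of -0.19. The identity list had 3 higher and 5 lower genes in members (median log2 ratio -0.32), and 2 higher and 4 lower in marker-complete members (median -0.01), shares near the background. Most identity genes lay within 2-fold between the libraries, as did most measured genes. The list holds Xcr1 and Clec9a of the rule and Wdfy4, Flt3 and Irf8 of the marker criterion. Cells were chosen for these genes in both libraries, so this is a description.

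Irf8, the transcription factor that sets the cDC1 fate, had 1325 CPM (95% Poisson interval 1109 to 1570) in CP+EVs and 1024 CPM (919 to 1136) in CP marker-complete members. Single cells ranged from 158 to 4023 CPM with a median of 909 in CP+EVs, and from 471 to 2058 CPM with a median of 985 in CP, so the CP range lay within that of CP+EVs. Wdfy4, which mouse cDC1 need for cross-presentation, had 697 CPM in CP+EVs and 977 CPM in CP, and Tlr3 had intervals of 251 to 496 CPM in CP+EVs and 227 to 342 CPM in CP. Rab7b, a small GTPase of endosomes, had 508 CPM in CP+EVs and 507 CPM in CP, and Dpp4, a surface peptidase, 418 and 432 CPM.

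Flt3, a protein-coding gene at chr5:147330741-147400489 on the minus strand (mm10), stood apart from Irf8, Wdfy4 and Tlr3. It had 219 CPM (137 to 332) in CP+EVs and 624 CPM (543 to 713) in CP marker-complete members, a ratio of 0.351 (0.215 to 0.546). Single cells had 91.9 to 430 CPM with a median of 191 in CP+EVs, and 108 to 1687 CPM with a median of 629 in CP. The ranges overlapped, with 20% of CP+EVs cells and 68% of CP cells still showing a Flt3 UMI after each cell was thinned to 1500 UMIs. Over all members the ratio was 0.169 (0.109 to 0.253), with Flt3 in 13 of 31 members in CP+EVs and 40 of 48 in CP. Detection of Flt3 was part of the marker criterion, so its level in marker-complete members is partly set by that choice. In Cd209a dendritic cells, chosen without Flt3, it had 82.4 CPM in CP+EVs and 200 CPM in CP, and in all other barcodes 14.9 and 21.8 CPM.

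Cadm1 (chr9:47530173-47857637, plus strand), an adhesion molecule used as a cDC1 surface marker, had 538 CPM (404 to 702) in CP+EVs and 29.2 CPM (14 to 53.6) in CP marker-complete members, 18.4-fold higher (9.3 to 40.6). It was detected in 8 of 10 marker-complete members in CP+EVs and 3 of 25 in CP, and in 1.39% of Cd3e-positive cells in CP+EVs and 0.664% in CP. The difference was of like size outside the cDC1. Cadm1 had 109 CPM in CP+EVs and 4.21 CPM in CP in C1q macrophages, 20.9 and 1.15 CPM in Cd209a dendritic cells, and 15.7 and 1.07 CPM in all other barcodes. Cd36, a scavenger receptor, had 568 CPM in CP+EVs and 108 CPM in CP marker-complete members, and 97.4 and 24.3 CPM in all other barcodes.

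Ifi205, of the PYHIN family of DNA-binding proteins, had 408 CPM in CP+EVs and 980 CPM in CP marker-complete members (ratio 0.417, 0.294 to 0.578), while all other barcodes had 287 and 254 CPM. Itgae, the alpha chain of CD103, had 3 UMIs in CP+EVs and 39 in CP (ratio 0.263, 0.0519 to 0.827). Septin3 was lower at a ratio of 0.582 (0.415 to 0.801). Batf3 had 70.1 CPM in CP+EVs and 21.5 CPM in CP over all members, but 3 UMIs in CP+EVs and 14 UMIs in CP in marker-complete members, at 29.9 and 40.8 CPM. The 20 further Batf3 UMIs of CP+EVs lay in members that were not marker-complete, where CP had 0.

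**Figure D2:**
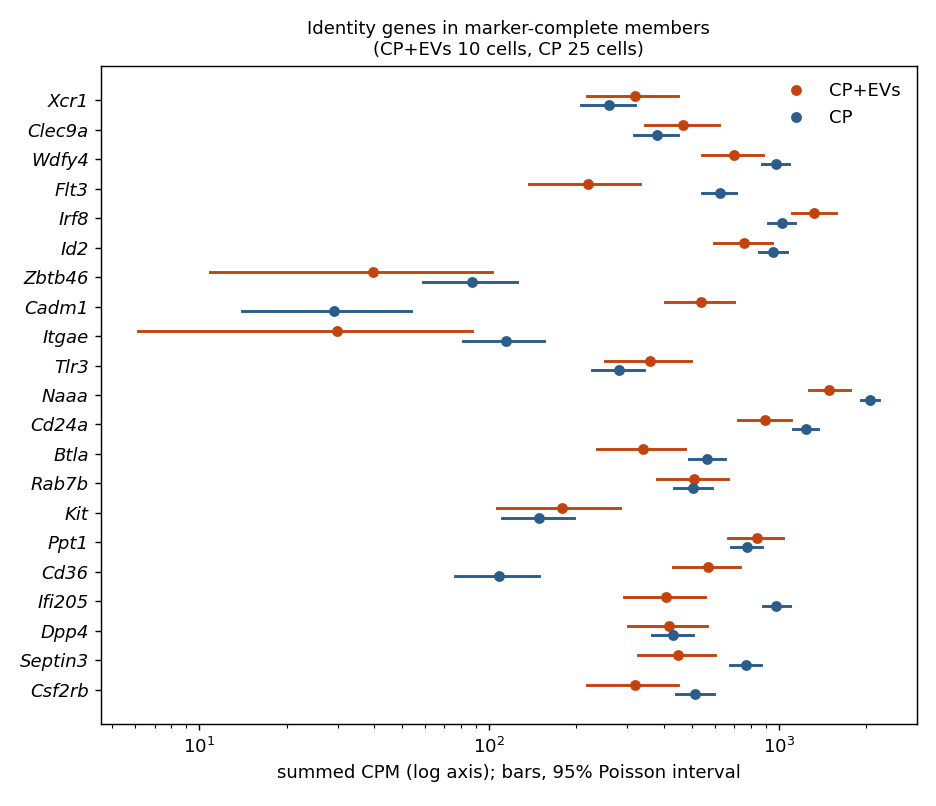
Summed CPM of 21 identity genes in marker-complete members on a log axis, with CP+EVs (10 cells) above CP (25 cells) in each row and bars for the exact 95% Poisson interval. Most intervals overlap, while Cadm1 and Cd36 lie higher and Flt3, Ifi205, Septin3, Naaa, Cd24a and Btla lower in CP+EVs without overlap.

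Of the 16 gene lists, those of cytokines and of interferon gamma had the highest median ratio and those of the cell cycle the lowest in members. The interferon gamma list had 8 higher and 2 lower genes among 23 measured in members (median log2 ratio 0.84), against 5.89% and 11.1% of all measured genes. In marker-complete members it had 6 higher and 0 lower genes among 13 measured (median 0.98), against 6.57% and 14.9%. The median was 0.42, with 2 higher genes among 10 measured, when 1 CP+EVs cell was left out, against 5.92% of all genes higher and 16% lower in those cells. In all members without that cell it had 6 higher and 2 lower genes among 20 (median 0.43), against 5.96% and 11.4%, and over members thinned to 1500 UMIs the median was -0.02. That cell was found after the values were seen, as the marker-complete member of CP+EVs with most UMIs of the list. Other cells of the libraries were counted in the same way. The list had 11 higher and 0 lower genes among 22 in Cd209a dendritic cells (background 7.85% higher and 10.9% lower), and 10 higher and 1 lower among 27 in C1q macrophages (6.47% and 8.95%). In Ccr7 and Fscn1 dendritic cells it had 2 higher and 4 lower among 23 (11.3% and 13.5%).

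**Figure D3:**
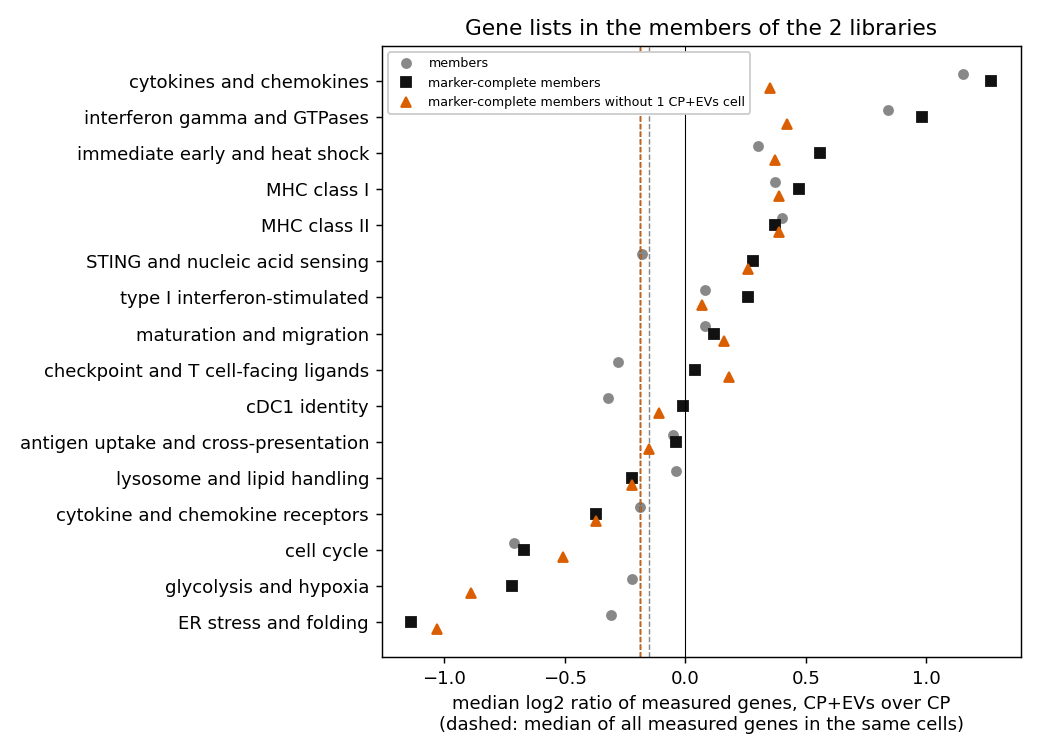
Median log2 ratio of each list's measured genes, CP+EVs over CP, in all members (circles), marker-complete members (squares) and marker-complete members without 1 CP+EVs cell (triangles); dashed lines give the median of all measured genes in the same cells. Without that cell the cytokine list lies at 0.35 in place of 1.27 and the interferon gamma list at 0.42 in place of 0.98, while the list for the endoplasmic reticulum stays near -1.

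Cxcl9 (chr5:92321347-92328079, minus strand) showed how much 1 cell held. It had 134 UMIs in 9 of 31 members of CP+EVs and 3 UMIs in 3 of 48 members of CP, or 408 CPM (342 to 483) against 4.6 CPM (0.948 to 13.4), a ratio of 88.8 (29.7 to 436). In marker-complete members it had 95 UMIs in 6 of 10 cells of CP+EVs and 1 UMI in 25 cells of CP. The cell named above held 76 of these 95 UMIs. Without it Cxcl9 remained higher, at 212 CPM (128 to 331) in CP+EVs against 2.92 CPM (0.0738 to 16.2) in CP, with another 14 of the UMIs in 1 cell. Thinned to 1500 UMIs, 2 of 10 cells in CP+EVs and 0 of 25 in CP kept a Cxcl9 UMI. Cd3e-positive cells with a UMI made up 5.16% in CP+EVs and 1.77% in CP. Cxcl9 was also higher in CP+EVs in Cd209a dendritic cells (78.2 CPM, against 0 in CP), in C1q macrophages (289 CPM against 76.2 in CP) and in all other barcodes (98.8 CPM against 18.5 in CP). Of the macrophage UMIs, 1 cell held 52.9% in CP+EVs and 1 cell 98.2% in CP.

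The GTPase Gbp2 had 713 CPM (624 to 810) in CP+EVs members and 29.1 CPM (17.5 to 45.5) in CP members. In marker-complete members 101 of its 107 UMIs in CP+EVs lay in the same cell. The other 9 cells had 6 UMIs or 67 CPM (24.6 to 146), and CP had 3 UMIs or 8.75 CPM (1.8 to 25.6), so the intervals overlapped slightly. Gbp2b, its neighbour and close paralog, had 52 UMIs in 6 members of CP+EVs and 0 in CP, at least 34.4-fold higher against a floor of 3 counts in the CP sum. The cell held 26 of the 27 Gbp2b UMIs of marker-complete members. Irgm1 and Iigp1, GTPases that attack vacuoles of microbes, had 14 and 19 UMIs in CP+EVs, against 16 and 4 in CP, and the cell held 9 of the 14 of Irgm1 and 16 of the 19 of Iigp1. Without it the log2 ratios were 0.35 for Irgm1 and 1.58 for Iigp1. Over all members Iigp1 had 27 UMIs of 328286 in CP+EVs and 34 of 652374 in CP. A single CP member held 25 of the 34, and the same CP+EVs cell held 16 of the 27. The log2 ratio over all members was -0.55 without that CP+EVs cell and 2.42 without that CP member. Reads of such paralogs may have been split between them by the counting, and how that was done is not stated.

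The cell held 10876 UMIs, 10.8% of those of the 10 marker-complete members of CP+EVs, and 47.4% of their UMIs of the interferon gamma list. It carried 8 UMIs of Clec9a, 1 of Xcr1, 4 of Irf8, 2 of Wdfy4 and 1 of Flt3, and 0 of Septin3 and Cadm1. It also carried 92 UMIs of Lyz2, 84 of Retnla, 41 of Lpl and 12 of C1qb, genes of macrophages. A doublet and a single cell cannot be told apart here, since doublets were not removed. Another member of CP+EVs, with 32 UMIs of Cd209a, held 86 UMIs of Gbp2 and 21 of Cxcl9.

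**Figure D4:**
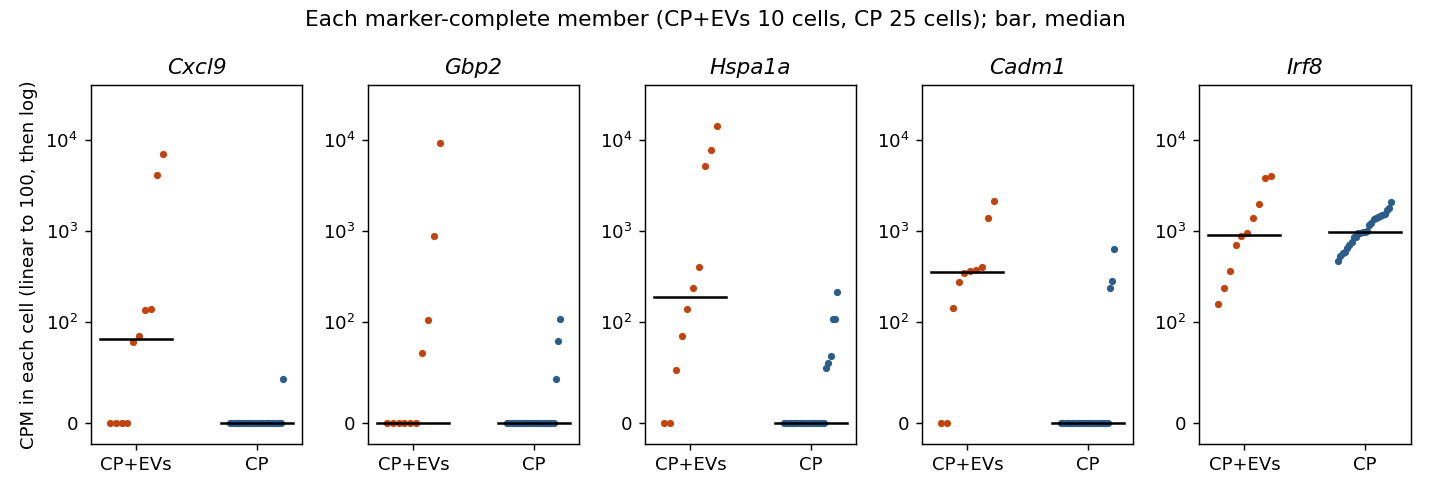
CPM of 5 genes in each marker-complete member, CP+EVs (10 cells) left of CP (25 cells) in each panel, on an axis that is linear to 100 and logarithmic above; bars are medians. A single CP+EVs cell lies at 9287 CPM for Gbp2, while Cadm1 is spread over 8 of the 10 cells. Irf8 spans 158 to 4023 CPM in CP+EVs and 471 to 2058 CPM in CP, with medians of 909 and 985.

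The start regions of these genes were searched for the interferon-stimulated response element, here GAAA, any 2 bases (NN) and again GAAA, on either strand, in the window of 250 bases before to 50 after the start. It is a motif bound by interferon regulatory factors and by the complex that interferons activate. It was present in 3.44% of 32851 mouse promoters, or for 3.99% of 27025 genes. Of genes measured in members and present in that table, 8 of 17 of the interferon gamma list held it, and 15 of 28 of the type I interferon list. The 3 that follow are printed because they belong to the GTPases above, from RefSeq on GRCm38.p6, 5′ to 3′ on the gene's own strand with the matches in capitals. Gbp2 (chr3:142620413-142620712, plus strand) has its match at -59 to -50 from the start, Gbp2b (chr3:142594597-142594896, plus strand) at -137 to -128, and Irgm1 (chr11:48871371-48871670, minus strand) has 2 overlapping matches at -30 to -21 and -24 to -15.
Gbp2: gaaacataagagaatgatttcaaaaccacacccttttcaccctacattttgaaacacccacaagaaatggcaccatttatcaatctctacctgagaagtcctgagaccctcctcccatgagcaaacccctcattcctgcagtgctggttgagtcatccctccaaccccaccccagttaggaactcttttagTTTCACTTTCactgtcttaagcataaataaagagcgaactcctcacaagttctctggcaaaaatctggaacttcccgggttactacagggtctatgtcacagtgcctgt
Gbp2b: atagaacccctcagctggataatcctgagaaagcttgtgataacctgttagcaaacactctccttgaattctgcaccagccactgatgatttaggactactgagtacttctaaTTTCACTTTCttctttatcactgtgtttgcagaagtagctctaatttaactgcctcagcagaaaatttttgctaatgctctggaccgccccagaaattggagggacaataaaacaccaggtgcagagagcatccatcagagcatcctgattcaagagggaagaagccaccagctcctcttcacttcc
Irgm1: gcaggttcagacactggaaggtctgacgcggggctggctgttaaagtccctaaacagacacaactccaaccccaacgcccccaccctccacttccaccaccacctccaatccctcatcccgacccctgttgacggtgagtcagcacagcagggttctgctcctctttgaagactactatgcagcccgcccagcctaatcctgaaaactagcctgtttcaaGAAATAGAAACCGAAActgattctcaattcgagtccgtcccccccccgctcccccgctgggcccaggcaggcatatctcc
In Gbp2 and Gbp2b the match reads on the opposite strand, so that the capitals show its reverse complement. The Cxcl9 window held no match of these letters, and a match or its absence says nothing of binding in these cells.

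Genes of type I interferon did not stand apart as a list. In members 3 of 36 measured genes were higher and 3 lower (median log2 ratio 0.08, background 5.89% and 11.1%). In marker-complete members 1 of 24 was higher and 3 lower (background 6.57% and 14.9%). The median there was 0.26, or 0.07 without the cell. Parp14, an ADP-ribosyltransferase, was the 1 higher gene, with 99.6 CPM in CP+EVs and 35 CPM in CP. Ifitm3, a membrane protein that blocks virus entry, had 359 CPM in CP+EVs and 1064 CPM in CP, and Ms4a4c, a four-span membrane protein, had 1 UMI in CP+EVs and 30 in CP.

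The series title names STING, the adaptor that passes on the sensing of DNA in the cytosol. Sting1 had 101 CPM (69.2 to 141) in CP+EVs members and 189 CPM (157 to 225) in CP members, a ratio of 0.533 (0.352 to 0.788). In marker-complete members it had 7 UMIs in 5 of 10 cells of CP+EVs and 80 UMIs in 21 of 25 cells of CP, 69.7 CPM (28 to 144) against 233 CPM (185 to 290). The direction was shared by the other cells of the libraries. Sting1 had 99.1 CPM in CP+EVs and 178 CPM in CP in Cd209a dendritic cells, 61.7 and 91.6 CPM in C1q macrophages, and 35.3 and 74.4 CPM in all other barcodes. Cgas, the DNA sensor upstream of it, had 60.9 CPM in CP+EVs members and 78.2 CPM in CP members, and the kinase Tbk1 had the same values, with 20 and 51 UMIs each.

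Irf3, the factor phosphorylated by Tbk1, had 7 UMIs in CP+EVs members and 21 in CP members. Of the sensing list as a whole 1 of 23 measured genes was higher and 2 lower in members (background 5.89% and 11.1%), with a median log2 ratio of -0.18. In marker-complete members 1 of 18 was higher and 3 lower (background 6.57% and 14.9%). The median there was 0.28, so the list's median turned with the choice of cells. The higher gene was Samhd1, which degrades deoxynucleotides, with 1116 CPM in CP+EVs and 516 CPM in CP, but 614 CPM in CP+EVs without the cell.

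Of the class I genes of antigen presentation, H2-K1 and H2-D1, heavy chains, had 2600 and 3785 CPM in CP+EVs, against 1248 and 1893 CPM in CP marker-complete members, ratios of 2.08 (1.78 to 2.44) and 2 (1.76 to 2.27). Without the cell they had 2312 and 3094 CPM in CP+EVs. In all other barcodes H2-K1 had 2727 CPM in CP+EVs and 2189 CPM in CP, and H2-D1 2633 and 2765 CPM. The class I list had 2 higher and 1 lower gene among 15 in members (median 0.37, background 5.89% and 11.1%). In marker-complete members it had 3 higher and 1 lower among 11 (median 0.47, background 6.57% and 14.9%). Without the cell it had 1 higher and 1 lower among 11 (median 0.39, background 5.92% and 16%). The lower gene was Psmb8, a subunit of the immunoproteasome, with 329 CPM in CP+EVs and 703 CPM in CP. In like cells the class I median was 0.20 in Cd209a dendritic cells and 0.61 in C1q macrophages, beside -0.21 for all genes in each. It was -0.23 in Ccr7 and Fscn1 dendritic cells, beside 0.01 for all genes.

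Class II genes, which the rule used, had a median log2 ratio of 0.37 with 0 of 11 measured genes past 2-fold in either direction in marker-complete members. Cd74, the invariant chain, had 14443 CPM in CP+EVs and 10956 CPM in CP. The class II median was 0.40 in Cd209a dendritic cells, 1.19 in C1q macrophages and 0.12 in Ccr7 and Fscn1 dendritic cells. These sets were chosen with the same class II limit. The list of antigen uptake and cross-presentation had 5 higher and 5 lower genes among 30 measured (median -0.04, background 6.57% and 14.9%). Calr and Pdia3, chaperones of the peptide-loading complex, were among the lower ones.

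Chaperones of the endoplasmic reticulum were lower as a group in marker-complete members. Of 22 measured genes of this list 0 were higher and 13 lower, against 6.57% and 14.9% of all measured genes. The median log2 ratio was -1.14 beside -0.19 for all genes. Without the cell 12 were lower, against 16% of all genes. Calr had 608 CPM (465 to 780) in CP+EVs and 1785 CPM (1646 to 1932) in CP, and Pdia3 had 518 and 1455 CPM. Single cells had up to 1248 CPM of Calr with a median of 445 in CP+EVs, and up to 3328 CPM with a median of 1543 in CP. Sdf2l1 and Creld2, both induced when unfolded protein builds up, had 4 and 5 UMIs in CP+EVs, against 92 and 70 UMIs in CP. Over all members 1 of 23 genes was lower, against 11.1% of all measured genes, and the median was -0.31. The other members had 1545 CPM of Calr in CP+EVs and 1803 CPM in CP. All other barcodes had 808 and 1953 CPM, so the marker-complete Calr ratio of 0.34 stood beside 0.414 outside the members. Of the list, Cd209a dendritic cells had 0 higher and 1 lower genes among 24 (median -0.59, background 7.85% and 10.9%). C1q macrophages had 1 and 7 among 25 (median -0.57, background 6.47% and 8.95%). Ccr7 and Fscn1 dendritic cells had 0 and 0 among 23 (median -0.64, background 11.3% and 13.5%).

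Heat shock and immediate early genes went the other way. Hspa1a and Hspa1b, near-identical paralogs of inducible HSP70 whose reads cannot be separated with confidence, had 1733 and 1942 CPM in CP+EVs, against 26.2 and 40.8 CPM in CP marker-complete members. Hspa1a was found in 8 of 10 cells of CP+EVs and 6 of 25 of CP, and 3 cells of CP+EVs held 58, 56 and 49 of its 174 UMIs. All other barcodes had 376 CPM of Hspa1a in CP+EVs and 155 CPM in CP. The list had 14 higher and 2 lower genes among 39 measured (median 0.56, background 6.57% and 14.9%). Without the CP+EVs cell with most interferon gamma list UMIs it had 12 and 1 among 38 (median 0.37, background 5.92% and 16%). In all members it had 6 and 0 among 42 (median 0.30, background 5.89% and 11.1%). Cd209a dendritic cells had 12 higher and 0 lower genes among 42 (median 0.52, background 7.85% and 10.9%). C1q macrophages had 10 and 3 among 42 (median 0.16, background 6.47% and 8.95%). The Ccr7 and Fscn1 dendritic cells had 1 and 15 among 42 (median -0.48, background 11.3% and 13.5%). Dusp1, a phosphatase of MAP kinases, had 1056 CPM in CP+EVs and 268 CPM in CP marker-complete members, and 978 and 1321 CPM in all other barcodes. Ier3 and Hspa5 were the lower genes. These genes are known to respond to tissue dissociation, and their part in the result was not tested.

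Cycling cells, with at least 2 UMIs of Mki67, Top2a, Birc5, Cdk1 and Ccnb2 together, were 7 of 31 members in CP+EVs (22.6%, 9.59 to 41.1) and 21 of 48 in CP (43.8%, 29.5 to 58.8). Among marker-complete members they were 3 of 10 (30%, 6.67 to 65.2) and 13 of 25 (52%, 31.3 to 72.2). The intervals overlapped in both. The call used 2 UMIs at full depth, and the CP members were deeper. The cell cycle list had 0 higher and 15 lower genes among 37 in members (median -0.71, background 5.89% and 11.1%). In marker-complete members it had 0 and 11 among 35 (median -0.67, background 6.57% and 14.9%). With the cycling cells left out the medians were 0.02 in members and -0.12 in marker-complete members. The genes that define cycling cells are in this list, so these medians were partly set by that choice. Mki67 and Top2a, proliferation markers, had 727 and 1106 CPM in CP+EVs, against 761 and 1085 CPM in CP marker-complete members. Lower were Cenpa, the centromere histone, with 29.9 CPM in CP+EVs and 300 CPM in CP, and Kif11, a spindle motor, with 49.8 and 213 CPM. The log2 ratio of Cenpa was -3.11, and 0.33 without cycling cells, from at most 3 UMIs in CP+EVs.

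Few members showed the Ccr7 programme of dendritic cells that migrate to lymph nodes. Ccr7 and Fscn1 together reached 2 UMIs in 4 of 31 members of CP+EVs and 4 of 48 of CP. Among marker-complete members this held for 1 of 10 in CP+EVs and 1 of 25 in CP. Membership needed 2 UMIs of Xcr1 and Clec9a, so cells of this programme with fewer fell outside the members. The maturation list had 2 higher and 2 lower genes among 22 in members (median 0.08, background 5.89% and 11.1%). In marker-complete members it had 2 and 3 among 14 (median 0.12, background 6.57% and 14.9%). Tnfaip3, a brake on NF-kB, had 169 CPM in CP+EVs and 23.3 CPM in CP, and Cd83, a maturation marker, 707 and 373 CPM. Il12b, the subunit of interleukin 12 that cDC1 make on activation, had 0 UMIs in all members of both libraries, which allows up to 11.2 CPM in CP+EVs and 5.65 CPM in CP.

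Among cytokines and chemokines 10 of 18 measured genes were higher and 2 lower in members (median 1.15, background 5.89% and 11.1%). In marker-complete members 7 of 10 were higher and 2 lower (median 1.27, background 6.57% and 14.9%). Without the cell 4 were higher and 1 lower (median 0.35, background 5.92% and 16%). Cd209a dendritic cells had 8 higher and 0 lower genes of this list among 18 (median 0.99, background 7.85% and 10.9%). C1q macrophages had 7 and 1 among 24 (median 0.54, background 6.47% and 8.95%). Ccr7 and Fscn1 dendritic cells had 4 and 9 among 18 (median -0.87, background 11.3% and 13.5%). Ccl3 and Ccl4, chemokines that draw leukocytes, had 209 and 249 CPM in CP+EVs, against 26.2 and 93.3 CPM in CP marker-complete members. For Ccl3, 18 of its 21 UMIs in CP+EVs lay in 1 cell, and without it the log2 ratio was 0.52. For Ccl4, 13 of its 25 UMIs lay in 1 cell, and without it the log2 ratio was 0.58. Outside the members both were lower in CP+EVs, with 38.9 and 59.7 CPM against 121 and 152 CPM in CP. Cxcl2, which draws neutrophils, had 1700 CPM in CP+EVs members and 245 CPM in CP members, but 59.8 and 137 CPM in marker-complete ones. Il6 and Il1rn had 85 and 137 UMIs in CP+EVs members, but 1 and 2 UMIs in the marker-complete ones of that library. Single marker-complete cells had up to 52.7 CPM of Il6 in CP+EVs and up to 830 CPM in CP.

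Ranked by ratio over all members, the highest 15 included Lyz1, Retnla, Fcrls, Lpl, F10 and Mgl2, transcripts of macrophages and type 2 dendritic cells, and the B cell genes Pax5 and Fcer2a. Retnla had 6305 CPM in CP+EVs and 96.6 CPM in CP members, 1175 and 20.4 CPM in marker-complete ones, and 380 CPM in CP+EVs without the cell. It was present in 68.5% of Cd3e-positive cells in CP+EVs and 9.51% in CP. Pax5 had 56 UMIs in CP+EVs and 4 in CP, of which 44 lay in 1 CP+EVs member. Areg, Rgs1, Gbp2b, Cxcl9, Gbp2, Hspa1a and Cadm1 made up the rest. The lowest 15 included Lcn2, Chil3, S100a8, S100a9 and Saa3, and the matrix genes Eln, Mfap4, Col3a1 and Col5a2. S100a8 had 2 UMIs in CP+EVs members and 187 in CP members, while all other barcodes had 45 CPM in CP+EVs and 2137 CPM in CP. Eln had 4 UMIs in CP+EVs members and 379 in CP members, of which 1 CP member held 352. The same member held 483 of the 1532 Col3a1 UMIs of CP members, and 1 CP member held 73.8% of the Lcn2 UMIs. Ifitm1, Cxcl13, Cxcl12, Ccn2, Igf1 and Serpina3n were the other low genes. The direction of some turned in other choices of cells, with log2 ratios of 1.04 for Cxcl13 in marker-complete members, 2.44 for Ccn2 with class II at 2% of UMIs, and 1.06 for Mfap4 and 0.33 for Col5a2 in marker-complete members without cycling cells.

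The ranked genes of marker-complete members were set beside the other barcodes of each library. Gpr141b, an orphan receptor, had 737 CPM (579 to 925) in CP+EVs and 70 CPM (44.8 to 104) in CP, while all other barcodes had 0.863 and 0.912 CPM. Phlda1 had 618 CPM in CP+EVs and 55.4 CPM in CP, and 189 and 266 CPM outside the members. The cell with most interferon gamma list UMIs held 50 of its 62 UMIs, and without that cell CP+EVs had 134 CPM. Cldnd1, a claudin-like membrane protein, had 89.6 CPM (41 to 170) in CP+EVs and 793 CPM (702 to 893) in CP, and 86.2 and 98 CPM outside. Ctnnd2, a catenin, had 0 UMIs in CP+EVs and 50 UMIs in 13 of 25 cells of CP, at least 4.88-fold lower against a floor of 3 counts in the CP+EVs sum. It was lower elsewhere too, with 14 CPM in CP+EVs and 130 CPM in CP in Cd209a dendritic cells, and 1.59 and 7.65 CPM in all other barcodes. Snx2, a sorting nexin, had 1 UMI in CP+EVs and 84 in CP, a ratio of 0.0407 (0.00102 to 0.233), and 123 and 237 CPM outside. Plac8 had 59.8 CPM in CP+EVs and 1015 CPM in CP, and 259 and 815 CPM outside. Nrp1, Tep1, Cd81, Cd226 and Lpl completed the 15 high genes, with 41 of the 46 Lpl UMIs of CP+EVs in that same cell. Scd2, Smim3, Sra1, Cyb5r4, Fkbp4, Saa3, Chil3, Ifitm1, S100a8 and S100a9 completed the 15 low ones, all with at most 2 UMIs in CP+EVs.

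**Figure D5:**
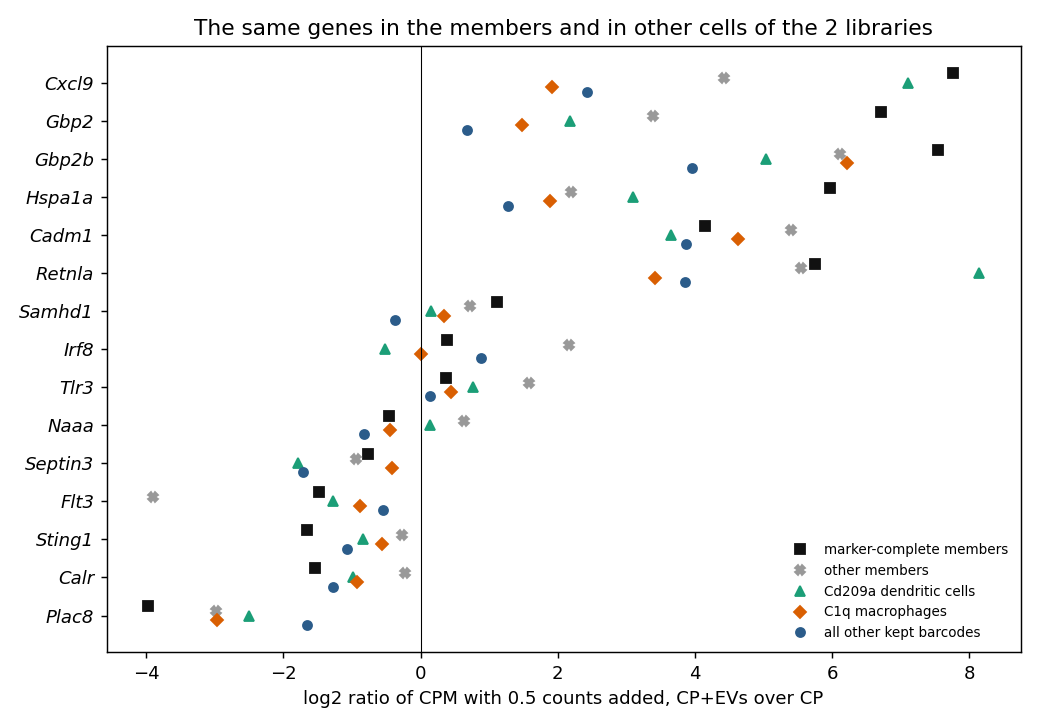
Log2 ratio of CPM, CP+EVs over CP, for 15 genes in marker-complete members (squares), other members (crosses), Cd209a dendritic cells, C1q macrophages and all other barcodes within the limits. Cadm1 and Retnla lie far to the right and Plac8 and Calr to the left in all 5 sets except Calr in other members. Of the 5 sets Gbp2 lies furthest right in the marker-complete members, where 1 CP+EVs cell holds 94.4% of its UMIs. Without that cell its log2 ratio is 2.83.

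The remaining lists had few genes past 2-fold in marker-complete members, where 6.57% of all measured genes were higher and 14.9% lower. The same shares were 5.89% and 11.1% in all members, and 5.92% and 16% in marker-complete members without 1 CP+EVs cell. The receptor list had 1 higher and 1 lower gene among 19 (median -0.37), and 0 higher and 6 lower among 28 in all members, with Il2rg, the common gamma chain, at 139 CPM in CP+EVs and 55.4 CPM in CP. Ifngr1, a chain of the interferon gamma receptor, had 578 CPM in CP+EVs and 295 CPM in CP. Glycolysis and hypoxia genes had 0 higher and 1 lower among 9 (median -0.72, or -0.89 with 3 lower genes without the CP+EVs cell with most interferon gamma list UMIs), the lower one being Gapdh with 110 CPM in CP+EVs and 265 CPM in CP. Lysosome and lipid genes had 3 higher and 1 lower among 20 (median -0.22), against 1 higher and 5 lower among 19 without that cell and 5 higher and 3 lower among 25 in all members. Ligands that face T cells had 2 higher and 1 lower among 11 (median 0.04). Aldh1a2, which makes retinoic acid, had 129 CPM in CP+EVs and 29.2 CPM in CP, from 13 and 10 UMIs.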

How the data were processed

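Single cells of mouse pancreas were captured on BD Rhapsody as 1 library per group, per the labels' protocols. The deposited values are UMI counts per gene and barcode, whole numbers that the authors left without normalization, per the file headers. The submitters' processing notes list CASAVA 1.8, UMI-tools, Seurat and mm10 without their roles, and the aligner, annotation and cell calling are not stated. Of 31253 gene IDs, 31107 were found in GENCODE, which gave gene positions; 43 symbols had several entries, of which the one with the highest count was kept, and 577 of 594 list symbols were present.

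Counts were summed over the members of each library and divided by their total (328286 UMIs in CP+EVs and 652374 in CP). Log2 ratios used 0.5 added counts, and fold bounds against 0 used a floor of 3 counts in the sum. Poisson and Clopper-Pearson intervals are at 95%, and intervals and floors cover counting error only. Genes were named as the 15 highest and 15 lowest ratios with at least 100 CPM in 1 library and 50 UMIs (without acinar, mitochondrial, haemoglobin, immunoglobulin, ribosomal, unnamed and rule genes), the 15 leading genes, the identity list and up to 4 genes of each other list, with a few fixed sensing and chemokine genes. One gene that this rule names is not reported here. Genes singled out beyond this were chosen after their values were seen. No doublet caller was run and doublets were not removed; the rule limits B cell, T cell and macrophage genes only. Members and lists were chosen with earlier results of these data known. Scripts used Python 3.11.15, numpy 2.4.6, scipy 1.17.1, pandas 2.3.3 and matplotlib 3.10.9 and were tested on simulated counts. Alternatives covered the rule's limits, scaling, filters, thinning to 1500 UMIs and the removal of cell kinds.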

Additional observations from a re-analysis of the deposited data

How the results depend on the processing

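No paired analysis was possible because each group has 1 library, and none could be left out. The lower share of members in CP+EVs kept its direction under all 8 alternatives tried. Settings on marker-complete members and on 1 left-out cell were chosen after seeing the data. Of the list medians, 306 values under the alternatives stayed close and 46 moved; of those for named genes, 768 stayed close, 276 moved and 12 changed direction. The cause was not tested. Depth limits genes of few UMIs, since CP+EVs marker-complete members pooled 100398 UMIs.

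Genes at least 2-fold higher and lower numbered 109 and 133 after thinning to 1500 UMIs, 1048 and 1131 with no filter on low counts, 152 and 183 at 100 CPM or more, 826 and 1476 at 1.5-fold, and 137 and 326 in marker-complete members without cycling cells. Higher genes numbered 231 with at least 4 UMIs of Xcr1 and Clec9a and 227 in marker-complete members without 1 CP+EVs cell, and lower genes 367 without members carrying S100a8 and S100a9.

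At 1 UMI of Xcr1 and Clec9a the list medians were -0.66 for identity, 0.84 for maturation, -0.34 for type I interferon and -0.53 for glycolysis. At 4 UMIs they were 0.15 for sensing, -0.56 for glycolysis and -0.94 for the endoplasmic reticulum (ER). With class II at 2% of UMIs they were -1.27 for the cell cycle and 0.56 for immediate early genes, and with C1q under 0.1% they were -0.48 for the cell cycle, -0.53 for glycolysis and -0.65 for the ER. Thinned, they were 0.28 for cross-presentation, 0.33 for sensing and -0.02 for interferon gamma. The cell cycle median was -0.57 with median-of-ratios scaling, and with the mean of per-cell CPM it was -1.12 beside 0.47 for immediate early genes. Without the 10% of members with most UMIs these were -1.44 and 0.64. Without cycling members the medians were -0.27 for maturation, 2.55 for cytokines and 0.02 for the cell cycle, and without Ccr7 and Fscn1 members -1.32 for the cell cycle. Without members carrying S100a8 and S100a9 they were -0.44 for the cell cycle, 0.53 for immediate early genes and -0.32 for lysosome genes.

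In marker-complete members the medians were 0.28 for sensing, 0.56 for immediate early genes, -0.72 for glycolysis and -1.14 for the ER. Without cycling cells they were -0.72 for cross-presentation, -0.29 for maturation, -0.12 for the cell cycle, 0.53 for immediate early genes and -1.10 for the ER. Without 1 CP+EVs cell they were 0.26 for sensing, -0.51 for the cell cycle, -0.89 for glycolysis and -1.03 for the ER. With totals that leave out acinar and like genes they were 0.37 for sensing, 0.35 for type I interferon, -0.58 for the cell cycle, 0.65 for immediate early genes, -0.63 for glycolysis and -1.05 for the ER.

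The log2 ratio changed direction for Fcer2a without Ccr7 and Fscn1 members (-0.53), for Ccn2 with class II at 2% (2.44) and without the deepest 10% (2.65), and for Mfap4 after thinning (0.15). Without cycling cells it did so in marker-complete members for Mfap4 (1.06), Col5a2 (0.33) and Cenpa (0.33). For Cxcl13 it was 1.77 at 4 UMIs of Xcr1 and Clec9a, 0.11 with class II at 2%, 1.04 in marker-complete members, 1.20 without 1 CP+EVs cell and 1.12 with the other totals. Few UMIs lay behind these values. Over all members CP+EVs had 1 UMI of Cxcl13, 1 of Ccn2, 2 of Mfap4 and 5 of Col5a2, and CP had 2 of Fcer2a. Marker-complete members of CP+EVs had 3 of Cenpa.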
